A study of Arabidopsis thaliana with 6 samples.

Results

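The Arabidopsis thaliana genes described here belong to the auxin response families. The naming rule found 16 genes, each with 1 probe set, out of 13356 genes that a probe set names alone in the platform annotation. A probe set was a member if its single gene symbol began with SAUR, IAA plus a digit, GH3., ARF plus a digit, PIN plus a digit or YUC, or was WES1, another name of GH3.5. The rule found 7 Aux/IAA genes, 5 GH3 genes and 4 YUC genes, and no gene symbol of the SAUR, ARF or PIN form in that annotation. None of 16 ARF and 8 PIN loci is named by a probe set either, and SAUR genes were not searched by locus. The annotation lists no gene for 8730 probe sets. The account is therefore one of Aux/IAA, GH3 and YUC transcripts, and the SAUR, ARF and PIN families were not analysed here. The members cover 7 of 29 Aux/IAA loci, 5 of 11 GH3 loci and 4 of 10 YUC loci of the locus lists used.

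The samples were 2 arrays of vip5 mutant plants, 2 of vip6 mutant plants and 2 of wild type (WT) plants, all 3 weeks old. Total RNA was profiled on oligonucleotide expression arrays. VIP5 and VIP6 encode plant counterparts of the yeast proteins Rtf1 and Ctr9, parts of the Paf1 complex, which accompanies RNA polymerase II during transcription. The labels give no allele, accession, growth condition or organ, nor if a group's 2 arrays were made from separate plants, so every p-value reflects array-to-array spread that may be purely technical.

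Auxin is perceived by TIR1/AFB receptors, which on binding it bring Aux/IAA proteins to degradation and thereby free the ARF transcription factors that Aux/IAA proteins hold in check. Many Aux/IAA and GH3 genes are themselves switched on by auxin, so their transcripts are widely used as readouts of the response. GH3 enzymes join auxin or related hormones to amino acids, which for auxin lowers the active pool, and YUC enzymes are flavin monooxygenases that carry out the last step of the main route of auxin synthesis.

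Array-wide values bear on all results. The trimmed mean of an array, with the lowest and highest 2% left out, lay between 494.4 and 496.5 on the 6 arrays. The 9 probe sets of the bioB, bioC, bioD and cre hybridisation controls were 2.45 to 4.77 times as bright on replicate number 2 as on number 1 in vip5, 2.3 to 3.24 times in vip6 and 1.4 to 2.09 times in WT. Differences within each replicate number are therefore given beside the pooled ones. The 3 leaf markers that a probe set names, RCA, LHCB4.1 and LHCB4.2, had intensities between 13593.7 and 46439.9 on all 6 arrays, and no root or flower marker of the lists is named. No values of VIP5 or VIP6 are given here, so the mutant labels were not checked on the mutated genes.

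A probe set was tested if it was brighter than the 40th percentile of an array, which was between 100.8 and 111.1, on at least 2 of the 6 arrays. Of the 16 members, 6 were tested, namely IAA18, IAA29, GH3.3, WES1, GH3.9 and YUC2. IAA29 passed this filter through its 2 WT arrays alone, with 0 of 2 vip5 arrays and 0 of 2 vip6 arrays above the 40th percentile, so its place among the tested members depended on its being brighter in WT. GH3.9 passed with 3 arrays, all of replicate number 2, and GH3.17 stayed just outside with 1 array. For GH3.17 the 2 WT arrays had 105.7 and 109.8, against 40th percentiles of 103.8 and 111.1 on the same arrays.

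**Figure D1:**
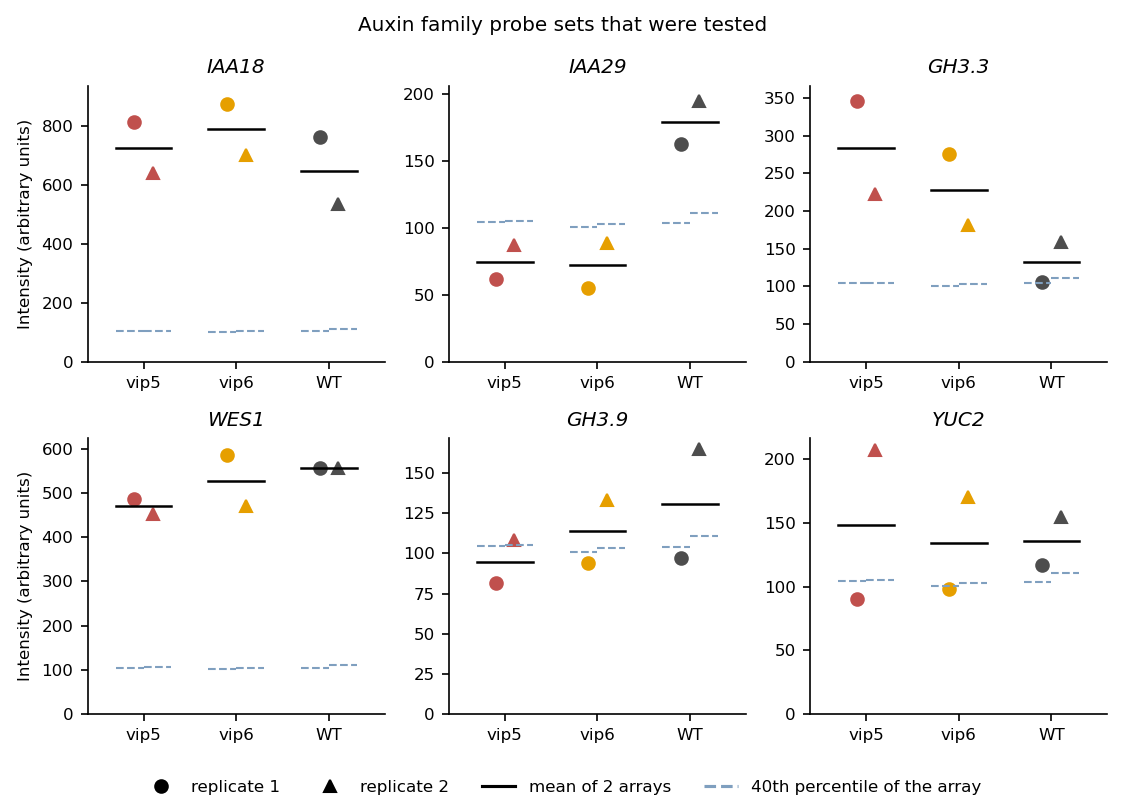
Intensity (arbitrary units, linear axis from 0) of the 6 tested members on each array, with vip5, vip6 and WT from left to right. Circles are replicate 1, triangles replicate 2, black lines the mean of the 2 arrays and dashed lines the 40th percentile of each array. All 4 mutant arrays lie below both WT arrays for IAA29, between 54.7 and 89.0 against 162.8 and 194.8, and above them for GH3.3. Over all tested probe sets, 13.2% have all 4 below and 12.5% have all 4 above.

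In vip5 against WT, which asks what differs when VIP5 is mutated, IAA29 was at less than the WT level on both arrays and GH3.3 at more, and the other 4 tested members differed by less. RNA came from whole samples, in which fewer cells of a type and less RNA per cell cannot be told apart. No member passed the limma test over all 14323 tested probe sets at an adjusted p of 0.05, where 0.0768% of all tested probe sets passed. At an unadjusted p under 0.05 there were 2 members, IAA29 and GH3.3, against 10.9% of all tested probe sets. In vip6 against WT again no member passed, where 0.105% of all tested probe sets did, and 1 member, IAA29, had an unadjusted p under 0.05, against 9.88% of all. Both comparisons use the same 2 WT arrays, so a WT array that is high or low for a gene moves both.

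IAA29 (AT4G32280) encodes an Aux/IAA protein, and its transcript is known to be raised by auxin and, through the PIF transcription factors, by shade and warmth. Its intensities were 61.4 and 87.0 on the vip5 arrays and 54.7 and 89.0 on the vip6 arrays, against 162.8 and 194.8 on the WT arrays (replicates 1 and 2). The highest mutant array was thus below the lower WT array, as in 13.2% of all tested probe sets, and the vip5 and vip6 arrays overlapped.

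The means of IAA29 were 74.2 ± 18.1 in vip5, 71.8 ± 24.3 in vip6 and 179 ± 22.6 in WT (SD, n = 2 each). On the log2(intensity + 39.35) scale, where fold changes of dim probe sets come out too small, the log2 fold change of IAA29 was -0.95 with a standard error of 0.23 in vip5 (limma adjusted p = 0.209) and -0.99 with a standard error of 0.23 in vip6 (limma adjusted p = 0.206). The difference from WT was about as large within each replicate number. It was -1.0 within number 1 and -0.89 within number 2 in vip5, and -1.1 and -0.87 in vip6.

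With the replicate number as a block in the same limma model, IAA29 passed as lower in both mutants. The adjusted p was 0.0289 for vip5 and 0.0297 for vip6. IAA29 was in the tested set only through its 2 WT arrays, so the filter and these calls rest on the same WT values. IAA29 was the 1 member of 6 that passed in either mutant, where 2.19% of all tested probe sets passed in vip5 and 1.77% in vip6. These calls for IAA29 were lost on leaving out some single mutant arrays, kept on leaving out either WT array, and lost without the filter. In vip5 the adjusted p with the block became 0.237 without vip5 replicate 1 and 0.303 without vip5 replicate 2, where 0.0559% and 0.0349% of all tested probe sets passed. Without either vip6 array it was 0.0307, where 2.19% passed. In vip6 it became 0.0736 without either vip5 array, 0.217 without vip6 replicate 1 and 0.157 without vip6 replicate 2, where 0.552%, 0.433% and 0.391% passed. Leaving out WT replicate 1 gave adjusted p values of 0.0198 for vip5 and 0.0172 for vip6, and leaving out WT replicate 2 gave 0.0119 and 0.0106. In these fits the spread comes from the mutant arrays alone and the lone WT array is assumed to vary like them, and more probe sets passed, 9.10% in vip5 and 8.08% in vip6 without WT replicate 1, and 5.69% and 4.36% without WT replicate 2. With a block and no filter on dim probe sets, IAA29 had the same log2 fold changes and adjusted p values of 0.133 in vip5 and 0.154 in vip6, in a fit in which no probe set of 22746 passed.

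IAA18 (AT1G51950) is the other tested Aux/IAA gene and encodes a repressor of the same family. Its intensities were 813.4 and 640.7 on the vip5 arrays and 874.6 and 703.1 on the vip6 arrays, against 762.4 and 535.4 on the WT arrays. The arrays of all 3 groups overlapped, and on number 2 every group was dimmer than on number 1. The log2 fold change of IAA18 was 0.17 in vip5, with a 95% interval from -0.39 to 0.72 (this and the other intervals are unadjusted for multiple probe sets), and 0.28 in vip6, with an interval from -0.27 to 0.83.

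GH3.3 (AT2G23170) encodes an enzyme that conjugates auxin to amino acids, and its transcript is induced by auxin. Its intensities were 346.5 and 222.1 on the vip5 arrays and 276.2 and 180.9 on the vip6 arrays, against 105.3 and 159.5 on the WT arrays. All 4 mutant arrays lay above both WT arrays, and the vip5 arrays and the vip6 arrays were each above them as in 20.0% and 19.2% of all tested probe sets. The lowest of them, vip6 replicate 2, was close to the higher WT array. The means were 284 ± 88.0 in vip5, 229 ± 67.4 in vip6 and 132 ± 38.3 in WT (SD, n = 2 each).

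The log2 fold change of GH3.3 was 0.91 with a standard error of 0.28 in vip5 (limma adjusted p = 0.329) and 0.64 with a standard error of 0.28 in vip6 (limma adjusted p = 0.525). With the block these became 0.115 for vip5 and 0.261 for vip6. The difference was unequal between the replicate numbers, unlike that of IAA29. In vip5 it was 1.42 within number 1 and 0.39 within number 2, and in vip6 it was 1.13 and 0.15. Between the numbers, GH3.3 was lower on number 2 in both mutants, by log2 differences of -0.56 in vip5 and -0.52 in vip6, and higher on number 2 in WT, by 0.46. With the block, the call of GH3.3 turned on 1 WT array. Without WT replicate 2, GH3.3 passed as higher in vip5 (log2 fold change 1.40, adjusted p = 0.0024) and in vip6 (1.14, adjusted p = 0.00759), in fits with 1 WT array and a spread from the mutants alone, where 5.69% and 4.36% of all tested probe sets passed. Without WT replicate 1 the log2 fold changes were 0.41 and 0.14, with adjusted p values of 0.228 and 0.721.

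**Figure D2:**
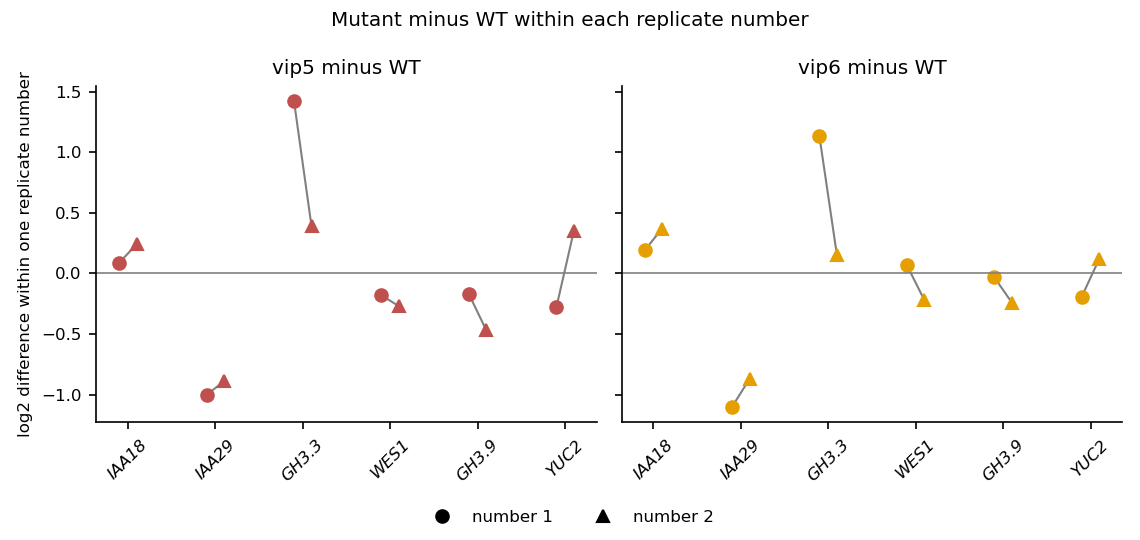
Mutant minus WT on the log2(intensity + 39.35) scale within replicate number 1 (circles) and number 2 (triangles), for vip5 (left) and vip6 (right), for the 6 tested members. The pair of IAA29 values lies between -1.1 and -0.87 in both mutants, whereas that of GH3.3 runs between 1.42 and 0.39 in vip5 and between 1.13 and 0.15 in vip6.

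WES1 (GH3.5, AT4G27260) encodes a GH3 enzyme that acts on both auxin and salicylic acid. It had 486.8 and 453.0 on the vip5 arrays and 585.4 and 470.0 on the vip6 arrays, against 556.7 and 555.8 on the WT arrays. Both vip5 arrays were below both WT arrays, which 20.8% of all tested probe sets also were, and the vip6 arrays lay on either side of them. The log2 fold change of WES1 was -0.23 in vip5 (interval from -0.66 to 0.21) and -0.078 in vip6 (interval from -0.51 to 0.36).

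GH3.9 (AT2G47750), a family member with a known part in root growth, had 81.5 and 108.4 on the vip5 arrays and 94.0 and 133.6 on the vip6 arrays, against 97.0 and 165.2 on the WT arrays. The groups overlapped, and within each replicate number both mutants were below WT. Its log2 fold change was -0.32 in vip5 (interval from -0.92 to 0.27) and -0.14 in vip6 (interval from -0.73 to 0.46).

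YUC2 (AT4G13260), the tested gene of auxin synthesis, had 89.9 and 207.3 on the vip5 arrays and 98.2 and 170.7 on the vip6 arrays, against 117.2 and 154.6 on the WT arrays. The mutant arrays lay on either side of the WT arrays, and the difference from WT changed sign between the replicate numbers. In vip5 it was -0.28 within number 1 and 0.35 within number 2, and in vip6 -0.19 and 0.12. The pooled log2 fold changes were 0.035 in vip5 and -0.036 in vip6, with intervals from -0.76 to 0.83 and from -0.83 to 0.76.

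Across the 6 tested members the median log2 fold change was -0.10 in vip5, against -0.0042 over all tested probe sets, and -0.057 in vip6, against -0.012 over all. Over all 16 members, fitted without the filter, it had the opposite sign, at 0.17 in vip5, against -0.001 over all 22746 probe sets, and 0.0086 in vip6, against -0.021. The log2 fold change was positive in 11 of the 16 members in vip5 and in 8 in vip6, against 49.8% and 46.4% of all probe sets. Members of the same family had different signs. In the GH3 family, GH3.3 was above WT on all 4 mutant arrays, while WES1 and GH3.9 had negative log2 fold changes in both mutants. In the Aux/IAA family, IAA29 was below WT on all 4 mutant arrays, while IAA18 had positive log2 fold changes in both. Without the block, the 95% intervals of WES1, GH3.9 and IAA18 included 0 in both mutants, as did that of GH3.3 in vip6. The signs of these differences are therefore uncertain. No member passed the test without the block. With the block, the filter and all arrays, IAA29 alone did, where 2.19% of all tested probe sets passed in vip5 and 1.77% in vip6. IAA29 was in the tested set only through its 2 WT arrays, and with the block but no filter it did not pass. All 4 mutant arrays were above both WT arrays in 12.5% of tested probe sets and below both in 13.2%, against 1 of 6 members each way.

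Between the mutants, which asks whether it matters which of the genes is mutated, no member passed the limma test, and none had an unadjusted p under 0.05 without the block. Over all tested probe sets 0% passed without the block, 0.00698% passed with it, and 1.54% had an unadjusted p under 0.05 without it. In each of the 6 tested members the vip6 and vip5 arrays overlapped, whereas both vip6 arrays were above both vip5 arrays in 12.2% of all tested probe sets and below them in 13.4%. IAA29 differed by -0.038 on the log2 scale (vip6 minus vip5), with a 95% interval from -0.57 to 0.49. GH3.3 differed by -0.27, with an interval from -0.93 to 0.39, and within numbers 1 and 2 by -0.29 and -0.25. The widest interval was that of YUC2, from -0.86 to 0.72, and the narrowest that of WES1, from -0.29 to 0.58. Intervals of this width leave room for differences between the mutants.

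**Figure D3:**
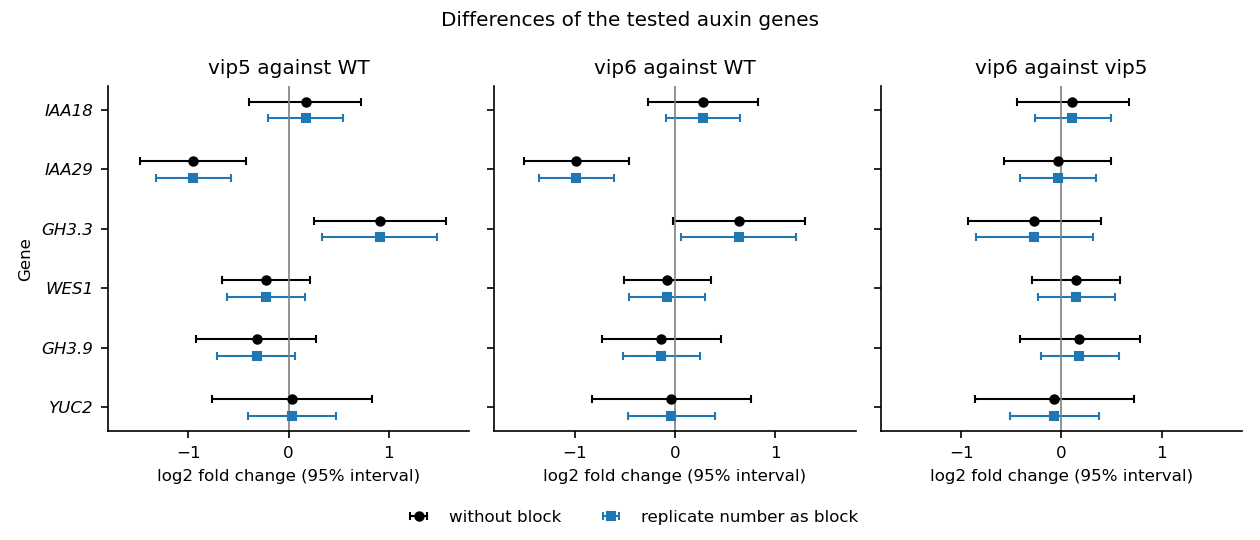
Log2 fold changes (points) with 95% intervals (bars) of the 6 tested members from the limma model without a block (black circles) and from the model with that block for the replicate number (blue squares), for vip5 against WT, vip6 against WT and vip6 against vip5. IAA29 sits at -0.95 and -0.99 against WT and at -0.038 between the mutants, and the intervals of all 6 members include 0 between the mutants.

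The other 10 members were too dim to be tested, and without detection calls or background values the data do not show which of them were above background. Leaving out GH3.17, the 9 others had intensities between 0.9 and 81.2, and none was above the 40th percentile on any array. In a fit of all 22746 probe sets without the filter, none of the 16 members passed in any comparison, with or without the block. Without the block that fit called 0.00879% of all probe sets in vip5, 0.00440% in vip6 and 0% between the mutants, and with the block it called 0% in each comparison. An unadjusted p under 0.05 without the block was found for 3 members in vip5, 3 in vip6 and 2 between the mutants, against 9.49%, 8.49% and 2.93% of all probe sets.

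Among the dim Aux/IAA genes, which include genes for family members without the usual degradation motif such as IAA20 and IAA30, the groups overlapped for IAA20, IAA33 and IAA34. IAA31 (AT3G17600) had 18.8 and 33.4 on the vip5 arrays and 10.8 and 2.6 on the vip6 arrays, against 42.8 and 30.1 on the WT arrays. The vip6 arrays were below all the others, while the vip5 and WT arrays overlapped. Of all probe sets, 20.9% had both vip6 arrays below both WT arrays and 15.8% had them below both vip5 arrays. For IAA31, 5 of the 6 arrays were below the 25th percentile of the array. Without the filter its log2 fold change in vip6 was -0.72 (limma adjusted p = 0.431). IAA30 (AT3G62100) had 33.2 and 61.0 on the vip5 arrays and 47.5 and 80.8 on the vip6 arrays, against 41.7 and 31.2 on the WT arrays, so that both vip6 arrays and 1 of the 2 vip5 arrays were above both WT arrays.

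The GH3 genes in this group were GH3.17 (AT1G28130), whose enzyme conjugates auxin to glutamate, and GH3.1 (AT2G14960), an auxin-induced gene. GH3.17 had 99.7 and 88.9 on the vip5 arrays and 87.9 and 98.3 on the vip6 arrays, against 105.7 and 109.8 on the WT arrays. All 4 mutant arrays were below both WT arrays, as in 11.4% of all probe sets, by log2 fold changes of -0.14 in vip5 and -0.15 in vip6 without the filter. GH3.1 stayed between 3.0 and 22.7 on the 6 arrays, and its groups overlapped.

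Among the dim YUC genes, YUC4 (AT5G11320), which acts in leaf and flower development together with other YUC genes, had 31.0 and 62.3 on the vip5 arrays and 6.1 and 23.3 on the vip6 arrays, against 12.5 and 4.7 on the WT arrays. Both vip5 arrays were above all the others. Without the filter its log2 fold change in vip5 was 0.82 (limma adjusted p = 0.434), with 0.44 within number 1 and 1.21 within number 2. YUC6 (AT5G25620) had 37.5 and 62.4 on the vip5 arrays and 76.7 and 73.1 on the vip6 arrays, against 51.7 and 23.1 on the WT arrays, with the vip6 arrays above all the others. YUC11 (AT1G21430) had 10.5 and 27.4 on the vip5 arrays and 2.1 and 3.2 on the vip6 arrays, against 0.9 and 7.4 on the WT arrays, with both vip5 arrays above the others.

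Over all 16 members, both arrays of vip5 were above both WT arrays in 3 and below them in 3, where 18.8% and 19.4% of all 22746 probe sets were. The same counts held for vip6, with 3 above and 3 below, where 16.7% and 20.9% of all probe sets were. The vip6 arrays were above both vip5 arrays for YUC6 and below them for IAA31, YUC4 and YUC11, where 12.0% and 15.8% of all probe sets were.

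**Figure D4:**
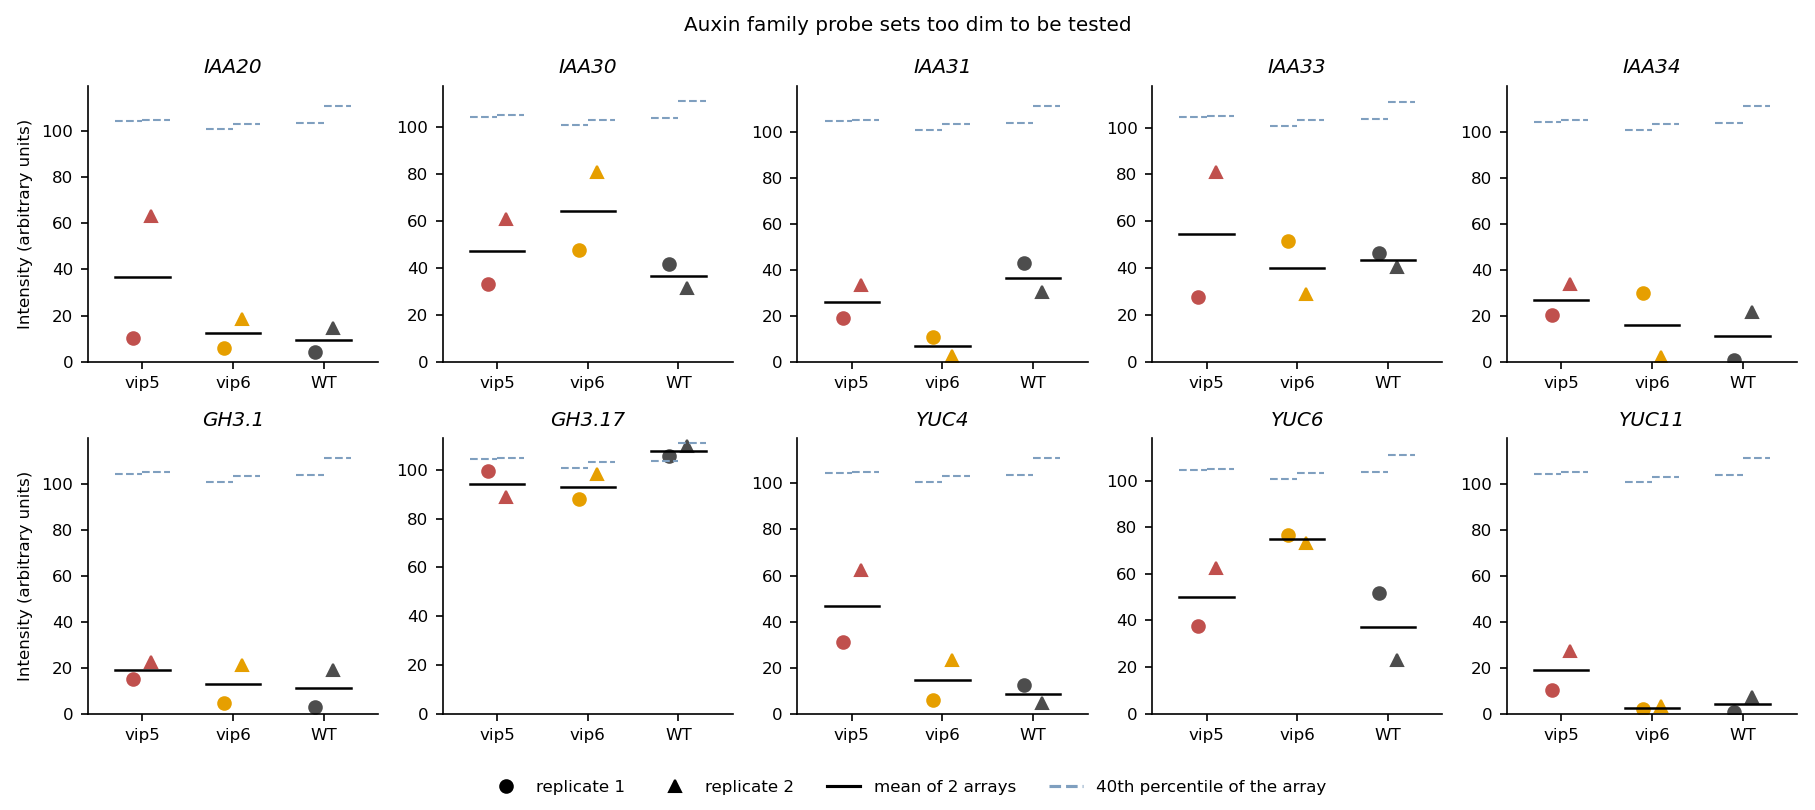
Intensity (arbitrary units, linear axis from 0) of the 10 members that were not tested, by array, with vip5, vip6 and WT from left to right. Circles are replicate 1, triangles replicate 2, black lines the mean of the 2 arrays and dashed lines the 40th percentile of each array, which 1 WT array of GH3.17 alone exceeds.

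The tested members also differed in brightness between the replicate numbers. IAA29, GH3.9 and YUC2 were brighter on number 2 than on number 1 in all 3 groups, and IAA18 and WES1 were dimmer, WES1 in WT by only -0.0022 on the log2 scale. The same direction in all 3 groups was found in 42.8% of all tested probe sets. For YUC2 the log2 difference between the numbers was 0.93 in vip5, 0.61 in vip6 and 0.31 in WT, and for IAA29 it was 0.33, 0.45 and 0.21. For YUC2 the differences between the numbers in vip5 and vip6 exceed those from WT within either number, and for IAA29 the differences between the numbers are smaller than those between mutant and WT. What the replicate number stands for is not given in the labels, and its part in these results was not tested.

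Of 71 further loci listed for auxin perception, transport, synthesis and inactivation and for auxin or shade response, 9 have a probe set that names them and 4 of these passed the filter. None of the 4 passed in any comparison, with or without the block. DAO1 (AT1G14130), which encodes an enzyme that oxidises auxin, had 192.5 and 180.9 on the vip5 arrays and 166.8 and 145.0 on the vip6 arrays, against 199.6 and 169.1 on the WT arrays. UGT74D1 (AT2G31750), an auxin glucosyltransferase gene, had 452.2 and 753.2 on the vip5 arrays and 279.4 and 656.3 on the vip6 arrays, against 537.8 and 813.8 on the WT arrays. The vip6 arrays of DAO1 were below both WT arrays and both vip5 arrays, and for UGT74D1 the groups overlapped. Of all tested probe sets, 20.8% had both vip6 arrays below both WT arrays and 13.4% had them below both vip5 arrays.

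The log2 fold change in vip6 was -0.20 for DAO1. For UGT74D1 it was -0.58, with a limma adjusted p of 0.702, or 0.182 with the block. HAT2 (AT5G47370), a homeobox gene induced by auxin and shade, had log2 fold changes of 0.089 in vip5 and 0.11 in vip6. ARL (AT2G44080), a gene of organ growth, had 0.038 in vip5 and -0.015 in vip6.

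The 5 named loci that were too dim to be tested were WAG2, DAO2, UGT84B1, LBD16 and LBD29. WAG2 (AT3G14370), which encodes a kinase that phosphorylates PIN auxin exporters, was the 1 of them whose groups did not overlap, and it is described because of its values. It had 51.3 and 53.5 on the vip5 arrays and 34.1 and 35.4 on the vip6 arrays, against 22.8 and 16.5 on the WT arrays. The arrays fell in the order vip5, vip6 and WT with no overlap, and the share of all probe sets with this full order was not counted. All 4 mutant arrays were above both WT arrays, in any order among themselves, in 10.1% of all probe sets. Without the filter its log2 fold change was 0.64 in vip5 (limma adjusted p = 0.348) and 0.33 in vip6 (limma adjusted p = 0.635), at intensities around and below the pseudocount.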

How the data were processed

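Linear intensity values of 22810 probe sets on 6 arrays were deposited by the authors as 1 table, with no negative value. How that table was computed was not given in the sources used here. Trimmed means were nearly equal, so no further normalization was applied. The 64 control probe sets were left out, and log2(intensity + 39.35) was fitted, where 39.35 is the median of the 25th percentiles of the 6 arrays. One limma 3.58.1 model in R 4.3.3 held 3 group means over all 6 arrays, with 3 residual degrees of freedom, two-sided moderated tests and p-values adjusted by Benjamini-Hochberg across all 14323 probe sets that passed the filter. The model was tested on simulated data with independent noise and no shared difference between the replicate numbers. How often it found changes there need not hold for these arrays. SDs are of intensities. Precision is limited by the number of arrays.

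Genes were named through the platform annotation and the TAIR10.1 gene table, to which all 16 members matched. All member probe sets carry the plain suffix without a mark for shared sequence, and cross-hybridisation was not checked. The members, lists and tests were chosen with earlier results of these data known. Text names every tested member, and of each pathway list the tested genes that passed and up to 3 more by absolute change, which took in all 4 tested. GH3.17, WAG2 and the other dim genes were described after their values were seen.

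Replicate numbers are shared by the groups without a stated meaning. Over tested probe sets, differences between the numbers correlated at 0.306 for vip5 and WT, 0.308 for vip6 and WT and 0.655 for vip5 and vip6, which does not establish pairing. Alternatives changed the block, normalization, pseudocount, filter, variance model, groups in the fit and arrays used. Leaving out an array kept the tested probe sets and the pseudocount.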

Additional observations from a re-analysis of the deposited data

How the results depend on the processing

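The count of members past the threshold was 0 in each of the 3 comparisons and stayed 0 without a block under each normalization, pseudocount, filter, variance model and choice of arrays. With the replicate block it was 1 (IAA29) in vip5 and 1 in vip6, also after quantile normalization, 0 in both without the filter, and 0 between the mutants. With the block and 1 array left out it ranged between 0 and 2 against WT, which leaves fewer arrays to estimate the spread, and between 5 and 1304 of all 14323 tested probe sets passed in these fits. The median log2 fold change of the tested members was not stable, set against the SD of its values within the 2 replicate numbers (0.11 in vip5, 0.051 in vip6 and 0.042 between the mutants). Without a filter, with or without the replicate block, it covers all 16 members and was 0.17 in vip5, 0.0086 in vip6 and -0.12 between the mutants, each of opposite sign to that of the 6. Above the 60th percentile it covers IAA18 and WES1 and was 0.10 in vip6 and 0.13 between the mutants. With 1 array left out and no block it ranged from -0.30 to -0.052 in vip5, from -0.13 to 0.09 in vip6 and from -0.0062 to 0.11 between the mutants. With the replicate block as well it ranged from -0.21 to -0.0014 in vip5, from -0.10 to 0.0068 in vip6 (0.0037 without WT replicate 2) and from 0.013 to 0.12 between the mutants. IAA29 and GH3.3 kept their sign against WT in each alternative that tested them. Small log2 differences changed sign. With quantile normalization, with or without the replicate block, YUC2 had 0.021 in vip6 against WT and IAA29 0.016 between the mutants. With 1 array left out and no block, the ranges that cross 0 were, in vip5, -0.074 to 0.41 for IAA18 and -0.43 to 0.50 for YUC2. In vip6 they were -0.23 to 0.069 for WES1, -0.43 to 0.16 for GH3.9 and -0.34 to 0.27 for YUC2. Between the mutants they were -0.55 to 0.012 for GH3.3, -0.003 to 0.37 for GH3.9, -0.05 to 0.28 for IAA18, -0.26 to 0.19 for IAA29 and -0.54 to 0.40 for YUC2. With the replicate block, YUC2 had -0.20 in vip5 without vip5 replicate 2 or WT replicate 2, 0.20 in vip6 without WT replicate 1, and 0.17 between the mutants without vip5 replicate 2. WES1 in vip6 then had 0.044 without vip6 replicate 2 and 0.018 without WT replicate 2, and IAA29 had 0.051 between the mutants without vip6 replicate 1. The cause was not tested. The combinations of the block with quantile normalization, with no filter and with 1 array left out were chosen after seeing the data. Without detection calls, dim members have no known limit of measurement.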
